A study of Bos taurus with 90 samples.

Results

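The miR-29 family was followed as 4 mature microRNAs, miR-29a, miR-29b, miR-29c and miR-29d, chosen by name from the deposited tables. They are 4 of the 388 miRNAs listed in any tissue and 4 of the 289 listed in all 5 tissues. The data came from 18 mid-lactation Chinese Holstein cows, with 6 cows on each of 3 forage diets built on alfalfa hay, corn stover or rice straw. The tissues were rumen epithelium, duodenum epithelium, jejunum epithelium, liver and mammary gland, giving 15 groups of 6 libraries and 90 libraries in all. Every cow was lactating, ate a single diet and gave all 5 tissues at slaughter, so no animal was seen on another forage, and the 90 libraries are not 90 animals. The series title concerns milk protein metabolism and the use of low-quality forage, and the diet contrasts address that question.

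MicroRNAs are short RNAs that pair with messenger RNAs through a seed at their 5′ end and lower the stability or translation of those messages. Members of the miR-29 family share a seed. They are best known for repressing collagens and other extracellular matrix genes, and also for repressing DNA methyltransferases. In the bovine RefSeq annotation named ARS-UCD2.0, the hairpin gene MIR29A was the direct neighbour of MIR29B-1 with 0 genes between them, and MIR29B-2 was the direct neighbour of MIR29C. MIR29D was next to MIR29E, on the chromosome of MIR29C with 2 genes between MIR29C and MIR29E. MIR29A was on another chromosome. Mature miR-29b therefore has 2 annotated source hairpins, 1 beside miR-29a and 1 beside miR-29c.

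Levels are given in CPM, the reads of a miRNA after scaling every library to the same total of miRNA reads. Mature miRNAs differ little in length, so CPM was not divided by length. The totals inferred from the steps between low CPM values ranged from 937556 to 15621501 reads per library with a median of 5778304.5, and 3 libraries, all of mammary gland, lay under 2000000 reads. These were rice straw replicates 1 and 5 and alfalfa hay replicate 1. In liver, alfalfa hay replicate 2 held the stratified epithelium marker miR-205 at 1525 CPM, against 0 to 13.0 CPM in the other 17 liver libraries, while its hepatocyte marker miR-122 was at 11014 CPM, within the 8671 to 12721 CPM of the others. The miR-205 level was 23016 to 52132 CPM in rumen, and miR-122 was at most 48.5 CPM in mammary gland and had no row in the other tissues outside liver. The summed intestinal markers miR-192, miR-194 and miR-215 were 231619 to 411412 CPM in duodenum, 144396 to 305331 CPM in jejunum and 122056 to 195995 CPM in liver, so they did not separate jejunum from liver, and were at most 4561 CPM in rumen and mammary gland.

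The family was abundant in every tissue, but its makeup differed. miR-29a, the most abundant member throughout, was highest in liver at 5029 ± 706 CPM (SD, n = 18), where it was the 25th most abundant of 330 listed miRNAs. It was at 3927 ± 743 CPM in jejunum, 3745 ± 606 CPM in duodenum, 3149 ± 681 CPM in rumen and 2848 ± 1442 CPM in mammary gland. miR-29c was highest where miR-29a was lowest, and lowest where miR-29a was highest. Its level was 2131 ± 1040 CPM in mammary gland, 1126 ± 218 CPM in duodenum, 821 ± 300 CPM in jejunum, 413 ± 96.1 CPM in rumen and 338 ± 60.8 CPM in liver (SD, n = 18 each).

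miR-29b was less abundant than miR-29a and miR-29c in every tissue. It stood at 252 ± 34.6 CPM in duodenum, 202 ± 56.1 CPM in jejunum, 199 ± 99.3 CPM in mammary gland, 154 ± 44.7 CPM in rumen and 117 ± 17.0 CPM in liver. The duodenum libraries, at 177 CPM or more, all lay above the liver libraries, at 155 CPM or less. miR-29d was the rare member, at 12.5 ± 7.13 CPM in mammary gland, 8.08 ± 2.22 CPM in duodenum, 6.32 ± 3.14 CPM in jejunum, 3.90 ± 1.59 CPM in liver and 3.48 ± 1.35 CPM in rumen. Every pair of neighbours in these 4 orders had overlapping libraries. Mammary gland had the widest spread for all 4 members, with a coefficient of variation of 48.8% to 57.1%.

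**Figure D1:**
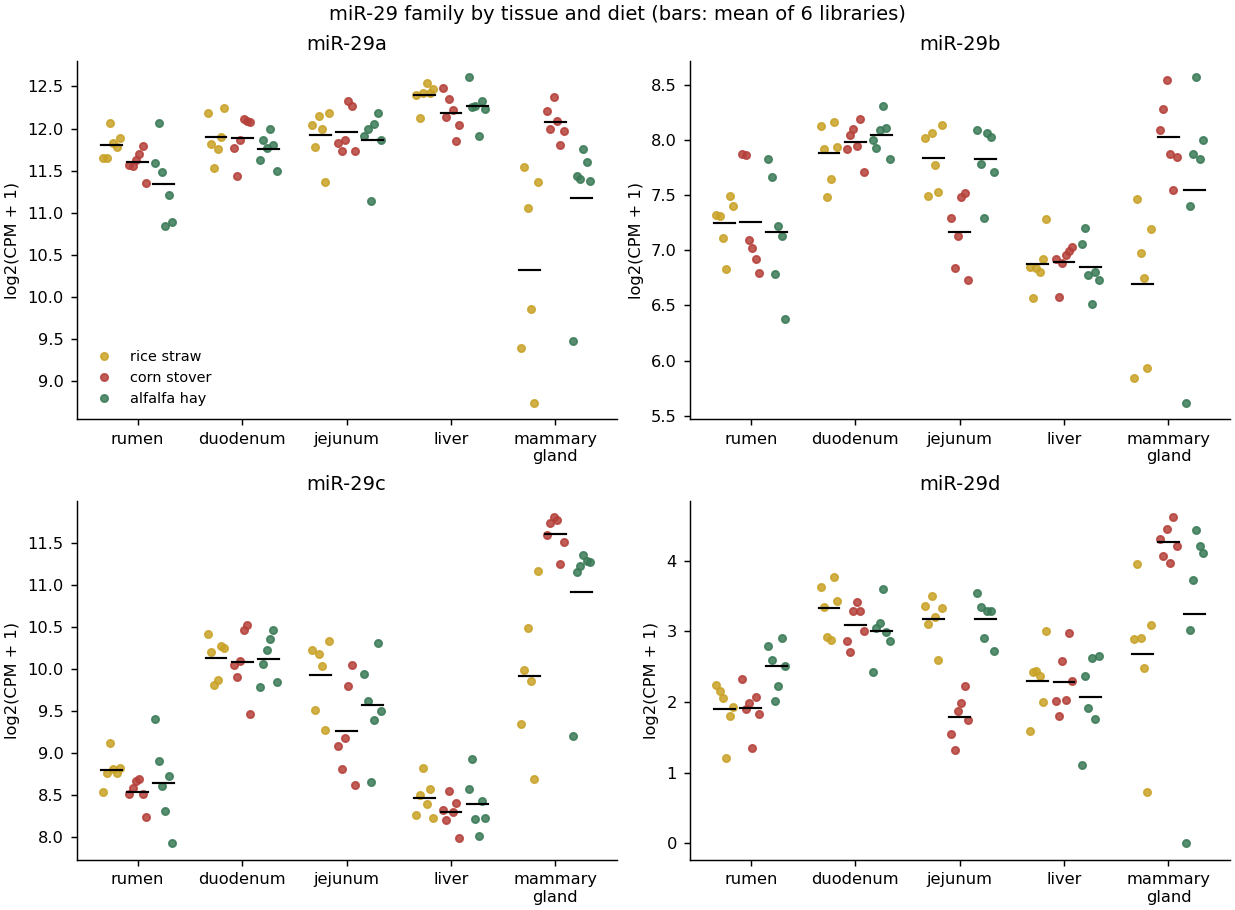
Level of each member on the log2(CPM + 1) scale (vertical axis) in the 5 tissues (horizontal axis). Each point is a library, colours mark the diets and the black bar is the mean of 6 libraries. miR-29a was highest in liver, miR-29c was highest in mammary gland, miR-29d was low in the jejunum of cows fed corn stover, and the lowest mammary gland points came from rice straw and from 1 alfalfa hay library.

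Summed over the 4 members, the family ranged from 3720 ± 755 CPM in rumen to 5488 ± 735 CPM in liver, with 4956 ± 1024 CPM in jejunum, 5130 ± 766 CPM in duodenum and 5190 ± 2531 CPM in mammary gland. The sums of all neighbouring tissues in this order overlapped. miR-29a made up 91.6% ± 1.28 of the family in liver, 84.4% ± 2.74 in rumen, 79.6% ± 4.01 in jejunum, 72.9% ± 3.14 in duodenum and 54.0% ± 5.52 in mammary gland (mean ± SD of 18 libraries). miR-29c filled most of the remainder, with 6.20% ± 1.08 in liver and 41.7% ± 5.26 in mammary gland. In liver there were 15.2 ± 2.50 reads of miR-29a per read of miR-29c, and in mammary gland 1.35 ± 0.432. The lowest ratio in a liver library was 10 and the highest in a mammary gland library was 2.94. miR-29a and miR-29c are near-identical in mature sequence. Because a read could differ from the reference at 2 positions and map to as many as 10 places, reads of one could have been assigned to the other, and how the family sum divides between miR-29a and miR-29c is uncertain for that reason. The same mapping rule held for the rare miR-29d, at 3.31 to 16.2 reads per 1000 reads of miR-29c in jejunum. Whether reads of other members were assigned to miR-29d was not tested.

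**Figure D2:**
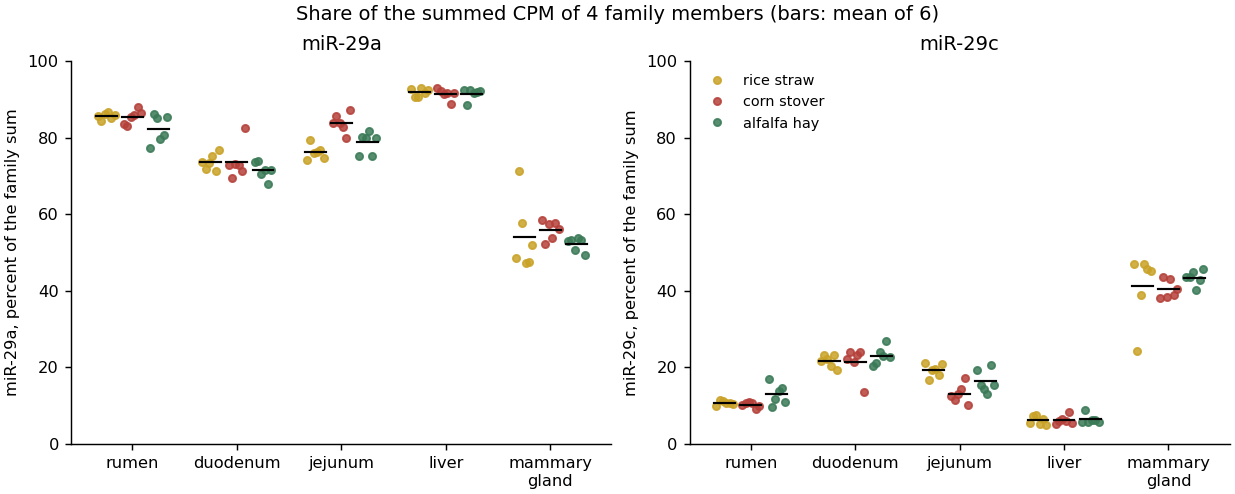
miR-29a (left) and miR-29c (right) as a percent of the summed CPM of the 4 members (vertical axes) in the 5 tissues. Points are libraries coloured by diet and bars are means of 6. Liver libraries held 88.4% to 93.0% miR-29a and mammary gland libraries 47.3% to 71.2%, with the miR-29c share the mirror of this.

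Tissues were compared with limma on log2(CPM + 1) over 289 miRNAs in all 90 libraries. The 90 libraries came from 18 cows and were treated as separate samples. All tissues shared 1 estimate of the spread, although mammary gland spread most, so its error may be understated. Between liver and mammary gland, all 4 members were called at an adjusted p under 0.05, as were 69.2% of all miRNAs tested. miR-29c was lower in liver by a log2 difference of -2.43 (95% interval -2.79 to -2.07, adjusted p = 2.11e-22), which placed it 17th lowest of 289. miR-29a was higher in liver by 1.09 (0.74 to 1.44, adjusted p = 5.77e-08). The median of all miRNAs in this contrast was -0.12. miR-29b differed by -0.55 and miR-29d by -1.18 (adjusted p = 0.00239 and 1.00e-05), so among the 4 members miR-29a was the exception in direction. The call of miR-29b was lost under TMM (trimmed mean) scaling at -0.22 and under upper-quartile scaling at -0.15 (adjusted p = 0.0567 and 0.219).

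Against mammary gland, miR-29c was lower in each of the other tissues. Its log2 difference from mammary gland was -2.15 in rumen, -1.23 in jejunum and -0.70 in duodenum (adjusted p = 1.94e-19, 3.62e-09 and 0.000353). In the same order, 82.7%, 78.5% and 79.6% of all miRNAs were called in these contrasts, so a call in itself was common. The ranks of miR-29c were 14th, 36th and 82nd lowest of 289. miR-29a was higher than in mammary gland in jejunum by 0.72 and in duodenum by 0.66 (adjusted p = 0.000184 and 0.000539). In rumen it was higher than in mammary gland by 0.39 (adjusted p = 0.0354), but this difference was -0.0036 (adjusted p = 0.977) without the 3 mammary gland libraries under 2000000 reads and 0.12 (adjusted p = 0.344) under TMM scaling.

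The small intestine held more miR-29c and miR-29b than liver. Duodenum exceeded liver by 1.73 in miR-29c and by 1.09 in miR-29b on the log2 scale (adjusted p = 8.46e-15 and 6.27e-09), and all 4 members were called there, with 82% of all miRNAs called. Jejunum exceeded liver by 1.2 and 0.74 (adjusted p = 5.39e-09 and 4.25e-05), with 83% called and a median of all miRNAs of 0.42. The excess of miR-29b in jejunum over liver was 0.19 (adjusted p = 0.112) with upper-quartile scaling. miR-29a was lower in jejunum than in liver by -0.37 (adjusted p = 0.0478), a call that was lost without the liver library holding miR-205 (adjusted p = 0.0509) and with diet and replicate number as a block standing for the cow (adjusted p = 0.0502). Duodenum and jejunum, where 10% of miRNAs were called, differed in miR-29c by 0.53 (adjusted p = 0.0451) and in no other member at that threshold. With the cow block this call was lost too (adjusted p = 0.0564).

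Rumen stood below both parts of the small intestine in miR-29b, miR-29c and miR-29d. Relative to duodenum the log2 differences were -0.74, -1.45 and -1.04 (adjusted p = 4.80e-05, 1.40e-11 and 8.93e-05), with 71.6% of miRNAs called and a median of 0.19. Relative to jejunum they were -0.39, -0.92 and -0.61 (adjusted p = 0.0323, 4.45e-06 and 0.0194), with 73.4% called. miR-29a differed by -0.27 and -0.33 (adjusted p = 0.168 and 0.0891), and was called under TMM scaling at -0.49 and -0.51 (adjusted p = 9.67e-05 and 5.09e-05). Between rumen and liver, 82.7% of miRNAs were called and the median of all miRNAs was 0.47. miR-29a was lower in rumen by -0.70 (adjusted p = 0.000236). miR-29b was higher in rumen by 0.35 (adjusted p = 0.0454, or 0.0568 with the cow block) and miR-29c by 0.28 (adjusted p = 0.153) in CPM, but less the median these were -0.12 and -0.19, and they turned to -0.25 and -0.32 under TMM scaling and to -0.36 and -0.44 under upper-quartile scaling.

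Across the 15 group means of log2(CPM + 1), miR-29c and miR-29d followed each other most closely of the 6 member pairs, with Pearson's r = 0.873. The pairs miR-29b with miR-29d and miR-29b with miR-29c gave 0.744 and 0.707. miR-29a was apart from the rest, with r = -0.256 to miR-29c, -0.0579 to miR-29d and 0.181 to miR-29b. Over the 90 libraries its r was 0.0192, 0.228 and 0.411 in the same order, with 0.690 to 0.767 among the other pairs. Among 285 miRNAs outside the family that were listed in all tissues, those most like miR-29a were miR-28 (r = 0.965), miR-15a (0.956) and miR-199a-3p (0.887). Those most like miR-29b were miR-16a, miR-545-3p and miR-186 (0.924, 0.922 and 0.918), and those most like miR-29c were miR-362-3p, miR-34c and miR-363 (0.918, 0.913 and 0.903). For miR-29d they were miR-186, miR-34c and miR-362-3p (0.897, 0.810 and 0.782). These values describe 15 points that share cows, libraries and their scaling, and carry no test. The names depended in part on the measure. miR-28 and miR-15a kept the first 2 ranks for miR-29a by Spearman's rho and over the 90 libraries. miR-199a-3p ranked 17th by rho (0.611). For miR-29b, miR-3613 ranked 1st over the 90 libraries (r = 0.808).

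In jejunum the family split by member with corn stover. miR-29d and miR-29b were lower in cows fed corn stover than in cows fed either other forage, while miR-29a stayed within the spread between cows. miR-29d was at 1.49, 2.51 and 3.69 CPM (lowest, median and highest of 6) with corn stover, at 5.01, 8.62 and 10.3 CPM with rice straw and at 5.58, 8.76 and 10.6 CPM with alfalfa hay. No corn stover library reached any library of the other diets. The mean with corn stover was 2.51 ± 0.773 CPM (SD, n = 6), 3.28-fold below the rice straw mean of 8.23 ± 1.82 CPM and 3.28-fold below the alfalfa hay mean of 8.23 ± 1.84 CPM. These levels rested on inferred counts of 13 to 26 reads of miR-29d per library with corn stover, 52 to 90 with rice straw and 26 to 72 with alfalfa hay. Whether reads of other members were among them was not tested.

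The diets were compared by limma on log2(CPM + 1) within the 18 libraries of the tissue, over 336 miRNAs in jejunum. Between corn stover and rice straw, 28.6% of all miRNAs were called, 19.3% as lower, and the median log2 difference of all miRNAs was -0.18. miR-29d differed by -1.40 (95% interval -1.79 to -1, adjusted p = 1.85e-05), the 9th lowest of 336. Less that median the difference was -1.22, which was not tested. Between these diets 13.4% of all miRNAs had ranges that did not overlap. Between corn stover and alfalfa hay, where 22% of miRNAs were called, 14% as lower, and 8.63% had ranges that did not overlap, it also differed by -1.40 (-1.79 to -1, adjusted p = 1.50e-05) and was the 7th lowest. Both calls were kept in every one of the 18 fits that left out a library. Leaving out single libraries cannot show what several share. Corn stover replicates 1, 2 and 6 had the lowest miR-29d of their group (1.93, 1.49 and 2.37 CPM). Their listed CPM summed to 999719, 999560 and 999779, against 999927 or more in the other jejunum libraries. The other corn stover libraries, at 2.64 to 3.69 CPM, also lay below every library of the other diets. TMM scaling, with 28.9% of miRNAs called, gave -1.28 and upper-quartile scaling, with 30.1%, gave -1.35 for miR-29d against rice straw (adjusted p = 1.53e-05 and 1.62e-05).

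miR-29b was at 105, 148 and 182 CPM with corn stover (lowest, median and highest of 6), at 179, 238 and 281 CPM with rice straw and at 156, 239 and 271 CPM with alfalfa hay. All 6 corn stover libraries lay below the means of the other diets, and their ranges overlapped only at the edge. miR-29b was lower with corn stover by -0.67 against rice straw (95% interval -1.03 to -0.31, adjusted p = 0.0068) and by -0.66 against alfalfa hay (-1.02 to -0.31, adjusted p = 0.00845). Leaving out any of the 18 libraries kept both calls, with adjusted p from 0.00228 to 0.0253. In a single fit of all 90 libraries, which shares 1 estimate of the spread among tissues, the adjusted p was 0.0771 against rice straw and 0.0842 against alfalfa hay, with 9.34% and 6.57% of miRNAs called. miR-29d kept its calls there (adjusted p = 0.00404 and 0.00488).

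miR-29c was at 391, 560 and 1054 CPM with corn stover, 618, 1101 and 1290 CPM with rice straw and 403, 751 and 1270 CPM with alfalfa hay. The groups overlapped widely. The log2 difference from rice straw was -0.67 (95% interval -1.23 to -0.11, adjusted p = 0.0627), the size of that of miR-29b but with a larger error. It fell below 0.05 when rice straw replicate 5, alfalfa hay replicate 3, corn stover replicate 4 or corn stover replicate 5 was left out (0.0350, 0.0384, 0.0367 and 0.0218) and with upper-quartile scaling (0.0488). From alfalfa hay it differed by -0.31 (-0.87 to 0.24, adjusted p = 0.396).

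miR-29a ranged from 3397 to 5137 CPM with corn stover, 2648 to 4643 CPM with rice straw and 2262 to 4661 CPM with alfalfa hay. Its log2 difference with corn stover was 0.04 from rice straw (95% interval -0.32 to 0.40, adjusted p = 0.864) and 0.10 from alfalfa hay (-0.26 to 0.46, adjusted p = 0.685). Alfalfa hay and rice straw differed in no miRNA at an adjusted p under 0.05 in limma (0%), with 18 at an unadjusted p under 0.05. The ranges of alfalfa hay and rice straw overlapped for all 4 members, as for all but 0.298% of miRNAs, and the members' differences ran from -0.36 for miR-29c to 0.0012 for miR-29d. The F test over the 3 diets, which called 23.8% of miRNAs, called miR-29d (adjusted p = 7.95e-06) and miR-29b (adjusted p = 0.00702), with 0.138 for miR-29c and 0.876 for miR-29a.

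Within a library, the ratio of 2 members does not depend on how CPM is scaled. Per 1000 reads of miR-29a there were 30.7 to 42.7 reads of miR-29b with corn stover, 51.1 to 69.2 with rice straw and 53.9 to 70.4 with alfalfa hay. For miR-29d the ranges were 0.438 to 0.749, 1.89 to 2.26 and 1.49 to 2.88. The corn stover libraries overlapped neither other diet in these ratios. For miR-29c, 115 to 214 reads per 1000 with corn stover reached into the 208 to 285 of rice straw and the 158 to 272 of alfalfa hay. As shares of the family, miR-29b was 3.02% ± 0.315 with corn stover, 4.49% ± 0.458 with rice straw and 4.82% ± 0.565 with alfalfa hay (SD, n = 6 each). These ratios were examined after the levels and carry no test.

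**Figure D3:**
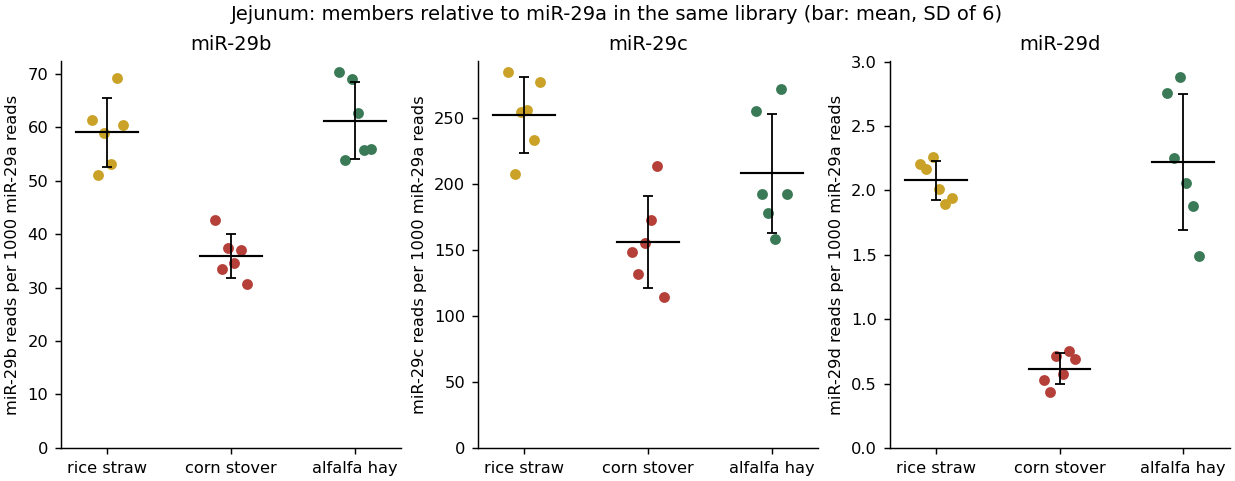
Reads of miR-29b, miR-29c and miR-29d per 1000 reads of miR-29a in the same jejunum library (vertical axes), by diet (horizontal axes). Points are libraries, and the bar with whiskers is the mean and SD of 6. Corn stover libraries lay at 30.7 to 42.7 for miR-29b and 0.438 to 0.749 for miR-29d, below all libraries of the other diets, and overlapped them for miR-29c.

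The direction of the calls over all miRNAs in jejunum depended on scaling. Of the 96 called between corn stover and rice straw, 31 were higher and 65 lower in CPM, against 58 higher and 39 lower under TMM scaling, while miR-29b and miR-29d were lower under either. Markers of some other cells were called in this contrast too, in which 28.6% of all miRNAs were called, 19.3% as lower. The summed fibroblast and smooth muscle markers (5 of 5 listed) were 188917 to 303638 CPM with corn stover and 158692 to 244106 CPM with rice straw, and 1 of 5, miR-145, was called, as lower. The summed immune markers (6 of 6 listed) were 19730 to 32062 CPM and 24668 to 35587 CPM, and miR-146a and miR-155 were called, as lower. Of the striated muscle markers miR-1 was called, as lower, with sums of 243 to 400 CPM and 284 to 365 CPM, and miR-206 had no row. None of the 5 epithelial markers (4714 to 10702 CPM with corn stover and 7423 to 8913 CPM with rice straw), the 3 intestinal markers (157044 to 305331 CPM and 205608 to 276217 CPM) or the 3 red blood cell markers (280 to 2030 CPM and 345 to 525 CPM) was called. miR-205, miR-203 and miR-122 had no row in jejunum. The part of these cells in the miR-29 differences was not tested. In tissue pieces, fewer cells of a type and less miRNA per cell cannot be told apart.

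In mammary gland all 4 members were higher with corn stover than with rice straw in CPM, in a contrast in which most of the called miRNAs were higher. miR-29a was at 3584, 4212 and 5333 CPM with corn stover (lowest, median and highest of 6), at 426, 1526 and 2981 CPM with rice straw and at 715, 2734 and 3476 CPM with alfalfa hay. miR-29c was at 2419, 3248 and 3560 CPM, at 411, 969 and 2285 CPM and at 589, 2420 and 2603 CPM in the same order. For miR-29a, every corn stover library lay above every library of the other diets. For miR-29c they lay above rice straw and overlapped alfalfa hay.

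miR-29b was at 185, 253 and 372 CPM with corn stover, 56.5, 115 and 175 CPM with rice straw and 48.0, 229 and 378 CPM with alfalfa hay. miR-29d was at 14.7, 18.1 and 23.4 CPM, at 0.655, 6.43 and 14.5 CPM and at 0, 14.3 and 20.5 CPM. The value of 0 came from alfalfa hay replicate 1, where 0 of 937556 reads allows up to 3.20 CPM, and 0.655 CPM was an inferred 1 read in rice straw replicate 5. For all 4 members the corn stover and rice straw ranges did not overlap, which held for 15.5% of all miRNAs in this contrast.

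Between corn stover and rice straw, 26.6% of 323 miRNAs were called, 25.1% as higher, and the median log2 difference of all miRNAs was 0.63. The 4 members exceeded that shift, by 1.12 for miR-29a, 0.71 for miR-29b, 1.06 for miR-29c and 0.97 for miR-29d. miR-29a differed by 1.75 (95% interval 0.83 to 2.67, adjusted p = 0.0135) and ranked 16th highest, and miR-29c by 1.69 (0.87 to 2.51, adjusted p = 0.0116) and ranked 18th. miR-29d differed by 1.6 (0.38 to 2.82, adjusted p = 0.0484) and miR-29b by 1.34 (0.46 to 2.22, adjusted p = 0.0298). The means were 2.67-fold higher for miR-29a, 2.81-fold for miR-29c, 2.77-fold for miR-29d and 2.40-fold for miR-29b.

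Scaling decided how many of these calls stood. In CPM 81 of the 86 called miRNAs were higher, whereas TMM scaling gave 19 higher and 17 lower and upper-quartile scaling 10 higher and 31 lower, with medians of 0.03 and -0.13. Under TMM scaling, with 11.1% of miRNAs called, miR-29a differed by 1.04 (adjusted p = 0.0354) and miR-29c by 0.98 (adjusted p = 0.0212), while miR-29b and miR-29d differed by 0.64 and 1 (adjusted p = 0.102 and 0.246). Under upper-quartile scaling, with 12.7% called, miR-29c kept its call at 0.77 (adjusted p = 0.038), and miR-29a differed by 0.83 (adjusted p = 0.0613). All 4 members stayed higher with corn stover than with rice straw under either scaling. Without the 3 libraries under 2000000 reads, the differences were 1.12, 0.94, 1.23 and 1.16 for miR-29a to miR-29d, all called (adjusted p = 0.00695, 0.0168, 0.00226 and 0.0147), with 18.3% of miRNAs called.

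Single libraries mattered for the less abundant members. miR-29a and miR-29c were called in all 18 fits that left out a library. miR-29b was called in 11, and lost its call without rice straw replicate 1 or 5 or corn stover replicate 1, 2, 3, 4 or 6 (adjusted p up to 0.0755). miR-29d was called in only 3, those without rice straw replicate 2, rice straw replicate 3 or alfalfa hay replicate 1, and had an adjusted p of up to 0.143 in the other 15.

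**Figure D4:**
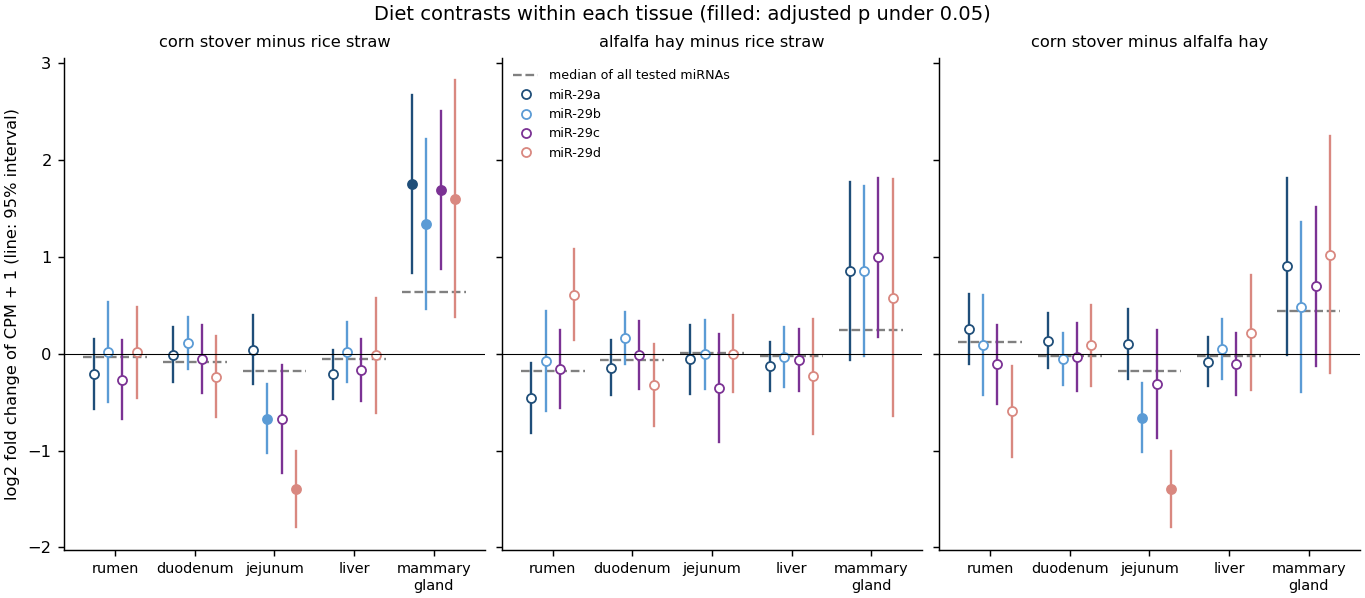
Log2 fold change of CPM + 1 for each member in the 3 diet contrasts (panels) within each tissue (horizontal axis), with 95% intervals from limma. Filled points had an adjusted p under 0.05 and the dashed grey line is the median of all miRNAs tested. In mammary gland the 4 members lay at 1.34 to 1.75 above a median of 0.63 in the corn stover and rice straw contrast. In jejunum miR-29b, miR-29c and miR-29d lay below 0 in that contrast, and miR-29c was not called.

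The alfalfa hay means lay between those of the other diets. Its log2 differences from rice straw were 0.85, 0.85, 0.99 and 0.58 for miR-29a to miR-29d (adjusted p = 0.407, 0.407, 0.407 and 0.75). Corn stover exceeded alfalfa hay by 0.90, 0.48, 0.69 and 1.02 (adjusted p = 0.412, 0.513, 0.457 and 0.457), and the difference of miR-29b turned to -0.19 under upper-quartile scaling. Each of these contrasts had 0% of miRNAs called by limma and 33 at an unadjusted p under 0.05. Without alfalfa hay replicate 1, miR-29b and miR-29c were called as higher with alfalfa hay than with rice straw, by 1.24 and 1.33 (adjusted p = 0.0346 each). In the single fit of all 90 libraries, miR-29a, miR-29b and miR-29c were called as higher with alfalfa hay than with rice straw, with 21.1% of miRNAs called, and miR-29a, miR-29c and miR-29d as higher with corn stover than with alfalfa hay, with 26% called. That fit shared 1 estimate of the spread among tissues, which may understate the error in mammary gland, where libraries spread most. The F test over the 3 diets called miR-29c (adjusted p = 0.0434), with 3.72% of miRNAs called, and gave 0.055, 0.09 and 0.144 for miR-29a, miR-29b and miR-29d.

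The low mammary gland values sat in particular libraries. The family sum was 898 CPM in rice straw replicate 5, 1351 CPM in alfalfa hay replicate 1, 1382 CPM in rice straw replicate 1 and 1964 CPM in rice straw replicate 4, and at least 3685 CPM in the other 14. The 3 lowest were the libraries under 2000000 reads. The 10 most abundant miRNAs took 65.4% to 67.1% of CPM with corn stover, 69.0% to 86.3% with rice straw and 68.8% to 87.0% with alfalfa hay, and the highest shares, 87.0%, 86.3% and 80.7%, belonged to the same 3 libraries. In the composition of the family the diets overlapped. Per 1000 reads of miR-29a there were 652 to 836 reads of miR-29c with corn stover, 340 to 994 with rice straw and 749 to 926 with alfalfa hay.

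**Figure D5:**
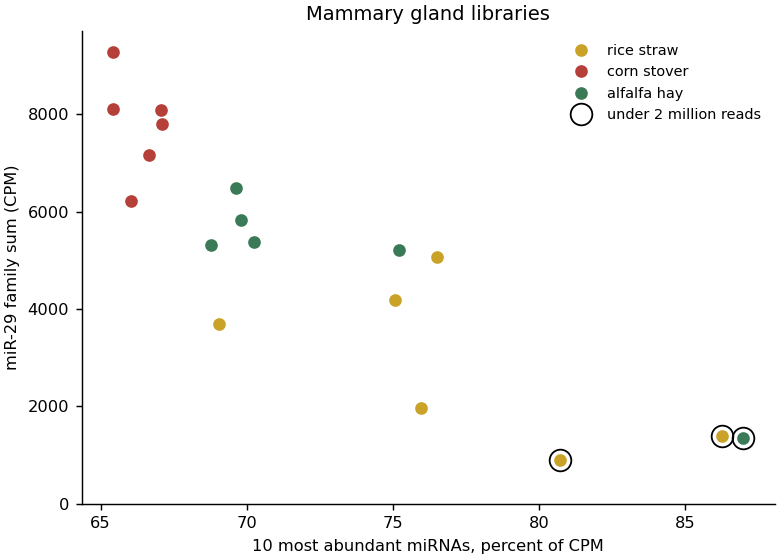
Family sum in CPM (vertical axis) against the share of CPM taken by the 10 most abundant miRNAs (horizontal axis) in the 18 mammary gland libraries, coloured by diet. Rings mark the 3 libraries under 2000000 reads. Corn stover libraries sat at 65.4% to 67.1% with sums of 6212 to 9285 CPM, and the ringed libraries at 80.7% to 87.0% with sums of 898 to 1382 CPM.

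Cell type markers were called in the same mammary gland contrast, in which 26.6% of all miRNAs were called, 25.1% as higher. As given above, TMM and upper-quartile scaling did not keep this excess of higher calls. The summed epithelial markers (5 of 5 listed) were 38600 to 58217 CPM with corn stover and 10598 to 45143 CPM with rice straw, and miR-141, miR-200b and miR-429 were called, as higher. The summed fibroblast and smooth muscle markers (5 of 5) were 73006 to 131445 CPM and 133322 to 231973 CPM, without overlap, with miR-143 called as lower and miR-199a-3p as higher. Immune markers (6 of 6) summed to 4009 to 9904 CPM and 885 to 9646 CPM, with miR-142-5p, miR-150 and miR-223 called as higher. Red blood cell markers summed to 1070 to 2938 CPM and 1202 to 3985 CPM, with miR-144 and miR-451 called as higher. Striated muscle markers (4 of 5 listed, without miR-206) summed to 128 to 269 CPM and 23.6 to 614 CPM, with miR-133a and miR-499 called as higher. Of the intestinal markers, miR-194 and miR-215 were called as higher, with sums of 2683 to 3714 CPM and 1905 to 2939 CPM, and miR-205, at 1525 to 6032 CPM and 768 to 8442 CPM, was not called. The median log2 difference was 1.32 for the epithelial list and 0.79 for the fibroblast list, against 0.63 for all miRNAs. Their part in the miR-29 differences was not tested.

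The diet difference itself differed between mammary gland and jejunum. In 1 fit of all 90 libraries, which treats the tissues of a cow as separate samples, the corn stover and rice straw difference in mammary gland exceeded that in jejunum by 1.71 for miR-29a, 2.01 for miR-29b, 2.36 for miR-29c and 2.99 for miR-29d on the log2 scale. All 4 were called (adjusted p = 6.17e-05, 4.64e-06, 5.30e-07 and 2.29e-06), as were 46.4% of 289 miRNAs, 43.3% as higher, with a median of 0.85. Under TMM scaling, which brought that median to 0.02, they were 0.81, 1.11, 1.46 and 2.24, all called (adjusted p = 0.00772, 0.000192, 7.54e-06 and 0.000213). Under upper-quartile scaling miR-29a lost its call, at 0.61 (adjusted p = 0.0568). For corn stover against alfalfa hay, with 15.6% called, the excess was called for miR-29b, miR-29c and miR-29d (1.14, 1.01 and 2.42, adjusted p = 0.0298, 0.0499 and 0.0011), and under TMM or upper-quartile scaling for miR-29d alone. For alfalfa hay against rice straw, with 3.81% called, it was called for miR-29c at 1.35 (adjusted p = 0.0244). This fit shared 1 estimate of the spread among tissues. Mammary gland had the widest spread for all 4 members, so the error of these differences may be understated.

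Rumen, duodenum and liver gave no called member in any diet contrast. In rumen, 2.69% of 335 miRNAs were called between alfalfa hay and rice straw. miR-29d was at 3.03 to 6.48 CPM with alfalfa hay and 1.3 to 3.7 CPM with rice straw, a log2 difference of 0.61 (95% interval 0.14 to 1.08, adjusted p = 0.0979) that was called under upper-quartile scaling at 0.79 (adjusted p = 0.0368). miR-29a differed by -0.46 (-0.82 to -0.10, adjusted p = 0.101), and by -0.61 (adjusted p = 0.0114) without alfalfa hay replicate 2. The other rumen contrasts and all contrasts in duodenum and liver had 0% of miRNAs called by limma, with 10 to 56 at an unadjusted p under 0.05. Members' differences lay between -0.32 and 0.16 in duodenum and between -0.24 and 0.22 in liver, the widest interval being -0.83 to 0.36, for miR-29d in liver.

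Other miRNAs with targets like those of miR-29 were counted for comparison, from lists chosen with earlier results of these data known. Of 3 miRNAs that target DNA methyltransferases (miR-148a, miR-148b and miR-152), miR-152 was lower in jejunum with corn stover than with rice straw, by -0.65 (adjusted p = 0.00488), while the abundant miR-148a differed by -0.20 (adjusted p = 0.512). In mammary gland 0 of these 3 were called by limma, and the list median was -0.46 against 0.63 for all miRNAs, with miR-148a at -0.46 (adjusted p = 0.127), opposite in sign to the miR-29 members. Of 14 miRNAs known to limit matrix production or fibrosis, 4 were lower and 0 higher in the jejunum contrast, in which 28.6% of all miRNAs were called and 19.3% were lower, with a list median of -0.23 against -0.18 for all miRNAs. Its most abundant members, miR-26a and miR-30a-5p, differed by -0.48 and -0.58 (adjusted p = 0.0111 and 0.00157). In mammary gland 7 of the same 14 were higher with corn stover and 0 lower, where 25.1% of all miRNAs were higher, with a list median of 1.06 against 0.63, while miR-26a differed by 0.93 (adjusted p = 0.0511) and miR-30a-5p by -0.04 (adjusted p = 0.92). This list includes all of the epithelial markers and the striated muscle marker miR-133a. The calls of miR-141, miR-200b, miR-429 and miR-133a are therefore the marker calls given above, counted again. Of 7 miRNAs linked to promoting fibrosis, miR-21-5p and miR-155 were lower in jejunum, where 19.3% of all miRNAs were lower. miR-21-5p differed by -0.42 (adjusted p = 0.0154). In mammary gland, where 25.1% of all miRNAs were higher, miR-199a-3p was higher by 1.38 (adjusted p = 0.0394). The calls of miR-155, also an immune marker, and miR-199a-3p, also a fibroblast marker, are again marker calls given above.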

How the data were processed

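Small RNA of 90 dairy cow samples (5 tissues, 3 diets, 6 libraries per group) was analysed, grouped by the tissue and diet labels. Replicate numbers follow the sample titles. The authors filtered reads with CASAVA 1.8 (also in the submitters' processing notes), removed adaptors and mapped what was over 15 nt long with sRNAbench to the bovine entries of miRBase 22. The deposited values are CPM, although the paper calls them raw counts: they are not whole numbers.

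In every library the 201 to 271 lowest values were whole multiples of 1 step (100% within a tolerance of 0.01). Read totals, reads per miRNA and the limit of 2000000 reads are inferred from that step, taken as 1 read. The files were too small for this recovery to be accepted as counts, so no count test was run. 3 reads were worth at most 3.20 CPM. Such floors cover counting error only. The intervals given with the differences came from limma and rest on the spread between libraries. No 2 libraries were identical.

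CPM was tested with limma 3.58.1 in R 4.3.3 (lmFit, eBayes with trend) on log2(CPM + 1), so fold changes of low miRNAs are understated. A miRNA entered when above 1 CPM in more than 50% of samples of a tissue in the fit and listed in every tissue of the fit. All 4 members passed in every tissue. P-values were Benjamini-Hochberg adjusted over all miRNAs of a contrast, at a threshold of 0.05. The fits were also run on simulated data with independent libraries and the same spread in every group. Such data cannot show how the fits perform with tissues of shared cows or with unequal spread. Tables were made with pandas 2.3.3, numpy 2.4.6 and Python 3.11.15, and figures with matplotlib 3.10.9.

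The family, the lists and the tests were chosen with earlier results of these data known. The named miRNAs are the 4 members, for each the 3 outside miRNAs with the highest correlation over the 15 group means, and from each context list the 2 most abundant. List members named beyond these (called markers and miR-152, miR-155) were named after their values were seen. Alternatives were pseudocounts of 0.1 and 5, TMM (unweighted) and upper-quartile scaling (75th percentile), no filter, leaving out libraries under 2000000 reads or each library in turn, replicate blocks, 1 fit of 90 samples and, chosen after seeing the data, leaving out the liver library with miR-205. The authors' expression rule was the filter. Whether libraries of a group are separate cows follows from the study's methods, and no batch or lane was given in the sources used here.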

Additional observations from a re-analysis of the deposited data

Results flagged for a closer look

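Of 60 tests for a library far from the other 5 of its group (4 members in 15 groups), 3 found one, and chance gives about 1 in 20. In mammary gland with alfalfa hay, replicate 1 was far below the others in miR-29a, at 714.6 CPM against 2653 to 3476 CPM, and in miR-29c, at 588.8 CPM against 2270 to 2603 CPM. It had the lowest depth of all 90 libraries, 937556 reads. In liver with corn stover, replicate 2 was low in miR-29b, at 94.38 CPM against 117 to 129 CPM.

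The diet difference was found to differ between mammary gland and jejunum, by a test of the difference itself, in 8 of 12 cases (limma, adjusted p under 0.05). The tests called 46.4% of all miRNAs for corn stover less rice straw, 3.81% for alfalfa hay less rice straw and 15.6% for corn stover less alfalfa hay. For corn stover less rice straw, the log2 excess in mammary gland was 1.71 for miR-29a, 2.01 for miR-29b, 2.36 for miR-29c and 2.99 for miR-29d, with the call of miR-29a lost under upper-quartile scaling. For alfalfa hay less rice straw it was 1.35 for miR-29c. For corn stover less alfalfa hay it was 1.14 for miR-29b, 1.01 for miR-29c and 2.42 for miR-29d, of which only miR-29d was called under TMM or upper-quartile scaling. In all 8 cases the log2 difference was higher in mammary gland than in jejunum. The fit shared the estimate of spread among tissues, so the error in mammary gland, where libraries spread most, may be understated.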

How the results depend on the processing

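Of 615 recomputed counts of called members, 560 stayed within 1.5 times the reported count, including counts of 0 that stayed at 0. In duodenum and liver no diet contrast called a member in any fit that left out a library, so this total says little about jejunum and mammary gland. TMM and upper-quartile scaling turned the rumen and liver differences of miR-29b to -0.25 and -0.36 and of miR-29c to -0.32 and -0.44, and called 4 members there in place of 2. Without libraries under 2000000 reads the rumen and mammary gland difference of miR-29a was -0.0036. Duodenum against jejunum called 1 member, but 2 under TMM, upper-quartile scaling or without those libraries, and 0 at a pseudocount of 0.1. In mammary gland, corn stover against rice straw called 4 members, 2 under TMM and 1 under upper-quartile scaling. The F test called 1, against 0 under TMM, upper-quartile scaling or a pseudocount of 0.1, 2 at a pseudocount of 5, and 4 without shallow libraries or in 1 fit of 90. That fit also called 3 members in each other mammary gland contrast (0 as reported) and 1 in each jejunum contrast with corn stover and the jejunum F test (2 as reported). Its shared estimate of the spread may understate the error in mammary gland. Rumen alfalfa hay against rice straw called 1 under upper-quartile scaling. The mammary gland less jejunum difference called 2 for alfalfa hay against rice straw without shallow libraries, and 1 for corn stover against alfalfa hay under TMM, upper-quartile scaling or without those libraries. Leaving out 1 library gave 2 to 4 called members in mammary gland for corn stover against rice straw, 0 to 2 for alfalfa hay against rice straw and 0 to 4 by the F test, 2 to 3 in jejunum for corn stover against rice straw, and 0 to 1 in rumen for alfalfa hay against rice straw and by the F test. The cause of these changes was not tested. Samples of 1 diet and number in different tissues had a median correlation of deviations of 0.0746, with 82 of 180 pairs (45.6%) over 0.1, against 24.4% of pairs with other numbers, and the labels do not say that a number is a cow. The numbers were not taken to pair samples in the main fits, under a rule that every pair be over 0.1. Single pairs can fall below 0.1 even for samples of the same cow, so this rule cannot decide the pairing. With the replicate block of cow, rumen against liver called 1 member and duodenum against jejunum 0, and with the block of number the mammary gland F test called 3. The replicate blocks moved no other count by more than 1.5 times. A count test on reads recovered from the CPM was not run, and no library outside mammary gland was under 2000000 reads. miR-29d rested on 0 to 294 reads per mammary gland library.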
